A study of Mus musculus with 2 samples.

Results

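The mouse miR-26 family comprises 3 microRNA genes, Mir26a-1, Mir26a-2 and Mir26b, and these were taken by gene symbol out of the 2202 microRNA genes counted in hippocampal small RNA. Each gene lies inside a gene for a small C-terminal domain phosphatase: Mir26a-1 in Ctdspl, Mir26a-2 in Ctdsp2 and Mir26b in Ctdsp1. The tissue came from female B6CASTF1/J mice, the hybrid of C57BL/6J and CAST/EiJ, aged 14 days, and all samples share this strain, sex and age, with no treatment named in the labels. There is 1 group with 2 biological replicates, each labelled as 3 females with different animal numbers, so every value is that of a pooled sample and no contrast between conditions exists. The labels call the tissue a layer of hippocampus without naming the layer.

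MicroRNAs are cut as short arms from a hairpin precursor, and a microRNA recognises messenger RNAs mainly through its seed, bases 2 to 8. The phosphatases encoded by the host genes remove phosphates from the C-terminal domain of RNA polymerase II and act with REST, the repressor that keeps neuronal genes silent outside neurons. In zebrafish, miR-26b has been found to repress the ctdsp2 transcript from whose intron it is made. No host messenger RNA was measured here, since the size range given in the labels ends below 30.

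The arms decide which reads can be told apart between the genes, so the 5 annotated mature sequences are shown first, 5′ to 3′, with the seed in capitals. They are RefSeq sequences on build GRCm38.p6, and all 3 members had an entry.
mmu-miR-26a-5p: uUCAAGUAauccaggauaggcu
mmu-miR-26b-5p: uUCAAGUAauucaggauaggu
mmu-miR-26a-1-3p: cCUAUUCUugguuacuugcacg
mmu-miR-26a-2-3p: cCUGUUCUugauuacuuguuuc
mmu-miR-26b-3p: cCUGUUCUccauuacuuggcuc

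Mir26a-1 and Mir26a-2 carry the same 5′ arm, miR-26a-5p, of 22 bases. Counted from base 1 at the 5′ end, the 21 bases of miR-26b-5p differ from it at 2 positions, C11U and C21U, both outside the seed. The seed UCAAGUA of all 3 genes occurred in no other gene of the RefSeq microRNA table. The 3′ arms fall into different seed groups: miR-26a-2-3p and miR-26b-3p share CUGUUCU, while miR-26a-1-3p has CUAUUCU, through the change A4G between miR-26a-1-3p and miR-26a-2-3p. CUGUUCU was also the seed of an arm of 2 further genes, Mir6932 and Mir7039.

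The 3 hairpins are shown because the bases next to the arms separate the 2 Mir26a genes. Capitals mark the annotated arms.
Mir26a-1: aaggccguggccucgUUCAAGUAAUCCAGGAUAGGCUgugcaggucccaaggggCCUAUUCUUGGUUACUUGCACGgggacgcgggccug
Mir26a-2: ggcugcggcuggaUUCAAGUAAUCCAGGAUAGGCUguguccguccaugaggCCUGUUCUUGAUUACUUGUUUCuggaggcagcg
Mir26b: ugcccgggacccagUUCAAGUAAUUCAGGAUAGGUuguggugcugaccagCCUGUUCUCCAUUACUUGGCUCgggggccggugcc

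All 3 genes lie on the plus strand of GRCm38 and within an intron of the longest protein-coding host transcript in GENCODE M21. Mir26a-1 (ENSMUSG00000065513.1), at chr9:119031796-119031885, sits in intron 5 of the 8-exon Ctdspl-201, an intron of 3283 bases. Mir26a-2 (ENSMUSG00000065430.1), at chr10:126995530-126995613, sits in intron 5 of the 8-exon Ctdsp2-202, an intron of 1946 bases. Mir26b (ENSMUSG00000065468.1), at chr1:74394310-74394394, sits in intron 4 of the 7-exon Ctdsp1-201, an intron of only 564 bases. No annotated microRNA gene overlaps any of the 3. Their counts on the opposite strand came to 0 in both libraries.

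The hairpins of Mir26a-1 and Mir26a-2 share a run of 25 bases, which begins exactly at the first base of miR-26a-5p and runs past its end. A read starting at that base therefore needs 26 bases to belong to 1 of the 2 genes, more than the 22 of the annotated arm. A read starting 1 base further upstream is already specific with 12 bases for Mir26a-1 and 9 for Mir26a-2, because the base before the arm differs. The 3′ arms are specific from 13 bases for Mir26a-1 and 11 for Mir26a-2. Mir26b shares at most 11 bases with Mir26a-1, 10 with Mir26a-2 and 12 with any other microRNA gene, and its 5′ arm is specific from 11 bases. These comparisons covered annotated microRNA genes on both strands and not the rest of the genome.

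**Figure D1:**
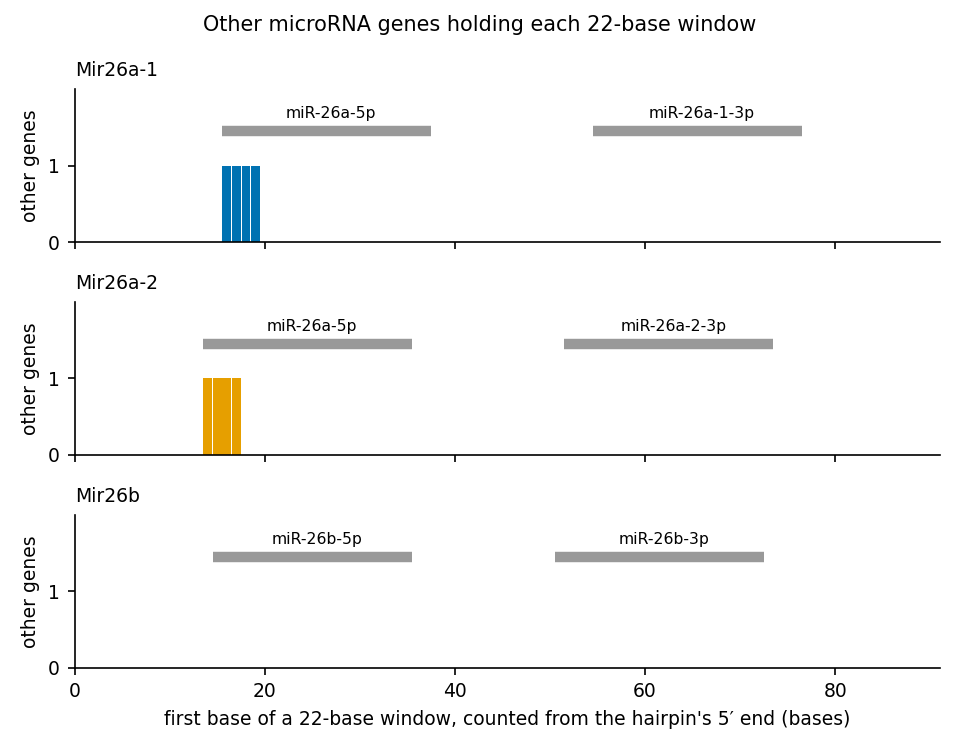
Number of other annotated microRNA genes that hold each 22-base window of the Mir26 hairpins, by the window's first base, with grey bars for the annotated arms. In Mir26a-1 the 4 windows starting at bases 16 to 19 and in Mir26a-2 the 4 starting at bases 14 to 17 occur in 1 other gene, and none of the 64 windows of Mir26b does.

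The libraries assigned 4764797 reads of replicate 1 and 2852269 of replicate 2 to microRNA genes, 36.1% and 36.4% of all reads. Reads that matched several places made up 40.8% and 37.1% of all reads and were counted in no gene. A count of 0 allowed up to 0.630 CPM, the count scaled to the library's total of assigned reads, in replicate 1 and 1.05 in replicate 2. The labels name no molecular identifiers, so amplified copies of a molecule count as separate reads, and every interval and floor below reflects counting error alone. Of 13 neuronal microRNA genes 10 were detected and tested, with summed levels of 25722 and 26481 CPM. Of these, 5 were higher in replicate 2 and 3 lower, beside 32.9% higher and 32% lower among all 450 tested genes. Mir138-1 had 2760 and 7155 CPM and Mir128-1 had 7405 and 2540 CPM, so the near-equal sums hold members in opposite order. The 3 copies of Mir124a, a microRNA typical of neurons, held at most 6.31 CPM each in either library. These are levels of reads assigned to 1 gene. Reads that matched several places are not in them, so they do not give the level of the mature microRNA.

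All 3 Mir26 genes were detected, with at least 10 counts in both libraries, as were 18.6% of the 2202 genes. Mir26b had 41498 counts in replicate 1 and 7701 in replicate 2. These are 8709 CPM (exact 95% interval 8626 to 8793) and 2700 CPM (2640 to 2761), a mean of 5705 ± 4249 CPM (SD, n = 2). Mir26b ranked 24th among all genes in replicate 1 and 58th in replicate 2.

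Mir26a-1 had 107 counts in replicate 1 and 19 in replicate 2, which are 22.5 CPM (18.4 to 27.1) and 6.66 CPM (4.01 to 10.4), with a mean of 14.6 ± 11.2 CPM (SD, n = 2). Mir26a-2 had 103 and 45 counts, which are 21.6 CPM (17.6 to 26.2) and 15.8 CPM (11.5 to 21.1), with a mean of 18.7 ± 4.13 CPM. Their ranks were 280 and 353 for Mir26a-1 and 286 and 301 for Mir26a-2. Mir26a-1 was the higher of the pair in replicate 1 and the lower in replicate 2, so their order does not hold across the libraries. These Mir26a values are levels of reads assigned to 1 gene. A read of 25 or fewer bases from the first base of miR-26a-5p occurs in both genes. The files do not say which arm a counted read came from, and the part of the multi-mapping reads that is miR-26a-5p was not tested.

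Among reads assigned to the family, 41708 in replicate 1 and 7765 in replicate 2, Mir26b held nearly all. It held 99.5% (exact 95% interval 99.4 to 99.6) of them in replicate 1. In replicate 2 it held 99.2% (98.9 to 99.4). Mir26b had 388 and 405 times the counts of Mir26a-1, and 403 and 171 times those of Mir26a-2. The hairpins are 84 to 90 bases long, so their lengths differ little. The family as a whole held 0.875% of assigned reads in replicate 1 and 0.272% in replicate 2.

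**Figure D2:**
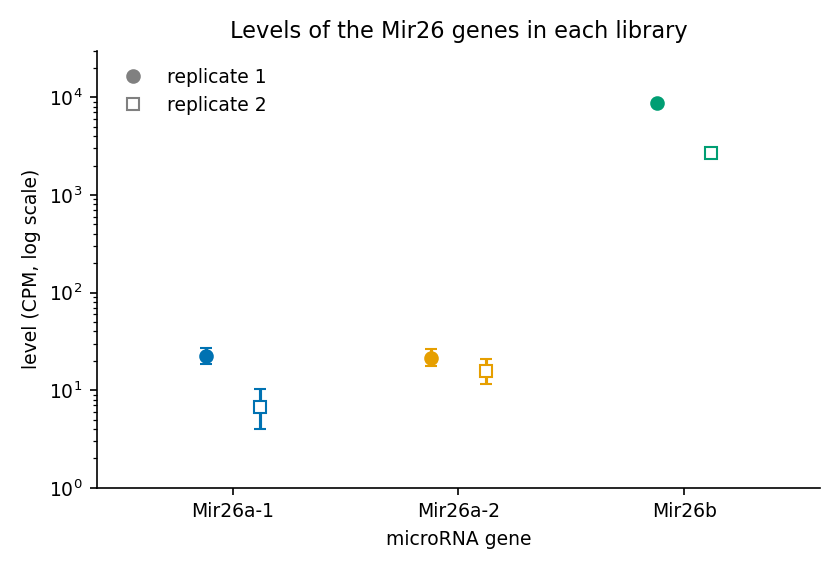
Level of each Mir26 gene in CPM, on a log axis, in replicate 1 (filled circles) and replicate 2 (open squares), with exact 95% counting intervals. Mir26b stands at 8709 and 2700 CPM, and both Mir26a genes lie between 6.66 and 22.5 CPM.

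The 2 libraries differed in Mir26b and Mir26a-1, and both were lower in replicate 2. As a log2 ratio of the second library to the first, Mir26b had -1.57 (95% counting interval -1.60 to -1.53), which is 2.96-fold lower, with an adjusted p too small for the arithmetic to hold. Mir26a-1 had -1.63 (-2.42 to -0.92), 3.10-fold lower, with an adjusted p of 1.2e-06 in an exact binomial test whose p-values were adjusted by Benjamini-Hochberg over 450 genes. Mir26a-2 did not pass, at -0.33 (-0.87 to 0.19) and an adjusted p of 0.29 by the same exact test.

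The test compares these 2 libraries and not conditions, and a difference between pools of animals cannot be told apart from one in library preparation. Of the 450 genes tested, 64.9% passed in either direction, 32.9% being higher and 32% lower in replicate 2, beside 2 of the 3 Mir26 genes. Those 2 were also lower by more than 2-fold, as were 11.3% of the tested genes. The median log2 ratio of the 3 members was -1.57, which is the value of Mir26b itself, against 0.01 over all tested genes. Mir26a-2 stood at -0.33, so the median does not describe every member. Ordered from the lowest ratio, Mir26a-1 and Mir26b stood at places 27 and 28 of 450.

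Ratios between members do not depend on the scaling of the libraries. The odds of a Mir26a-1 read against a Mir26b read changed by a log2 value of -0.06 (95% interval -0.85 to 0.65) from replicate 1 to replicate 2. The odds of Mir26a-2 against Mir26b changed by 1.24 (0.70 to 1.76), and those of Mir26a-1 against Mir26a-2 by -1.29 (-2.25 to -0.38). Mir26a-2 thus made up 49.0% (42.1 to 56.0) of the counts of the 2 Mir26a genes in replicate 1 and 70.3% (57.6 to 81.1) in replicate 2. The last of these shares rests on 64 counts. With 1 library per pool, the spread between libraries of the same pool is not in these intervals.

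Markers of other cell types also differed between the 2 libraries. Over all 450 tested genes 64.9% passed the test, 32.9% being higher and 32% lower in replicate 2. The choroid plexus and ciliated epithelium list had 4 of 7 genes detected and Mir449b at 0. It summed to 3951 CPM in replicate 1 and 1189 in replicate 2, with 4 of 5 tested genes lower. Mir122, the 1 gene of the liver list, had 41.1 and 25.6 CPM and was lower. The muscle list, with 1 of 6 genes detected and 3 at 0, summed to 74.5 and 34.4 CPM, and its 1 tested gene was lower. The immune list, with 5 of 5 detected, summed to 1786 and 1297 CPM, with 3 lower and 2 not past the test. Mir146a was also planned for this list, but its counted gene has the symbol Mir146 and is not in these sums. Mir146 had 3254 counts in replicate 1 and 1678 in replicate 2. The other epithelium list (6 of 8 detected) summed to 106 and 505 CPM, with all 7 tested genes higher in replicate 2. The red blood cell list (3 of 3 detected) summed to 290.0 and 722 CPM, but only Mir451a was higher, and the list's median log2 ratio was -0.17. Oligodendrocyte genes (3 of 4) summed to 1929 and 3198 CPM, with 2 of 3 tested genes higher. Both of these are copies of Mir219a, whose common arm is specific only from 22 bases. Endothelial and smooth muscle genes (3 of 4, with Mir126b at 0) summed to 15962 and 20349 CPM. That difference came from Mir126a, at 9966 and 16864 CPM, while Mir143 and Mir145a were lower in replicate 2, and the median was -0.46. The part of these cells in the Mir26 values was not tested. In bulk tissue, fewer cells of a type and less RNA per cell cannot be told apart.

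Other microRNA families also sit in introns of paralogous host genes, and 9 such genes were set beside Mir26. Of these, 4 were higher in replicate 2, 4 were lower and Mir211 did not pass, with a median log2 ratio of -0.46. Over all tested genes 64.9% passed and the median was 0.01. The microRNAs of the pantothenate kinase (Pank) genes resemble Mir26 in their sequence: Mir103-1 and Mir103-2 have 1 common 3′ arm, and Mir107 differs from it in a single base, G22C. They are shown 5′ to 3′ with the seed in capitals.
mmu-miR-103-3p: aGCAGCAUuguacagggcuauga
mmu-miR-107-3p: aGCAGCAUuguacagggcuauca

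As with Mir26, the gene with its own arm had the most counts. The 3′ arm of Mir107 is specific only from 22 bases, however, against 11 for the 5′ arm of Mir26b. Mir107 stood at 911 and 4181 CPM, Mir103-2 at 14.9 and 57.5 CPM and Mir103-1 at 1.89 and 5.26 CPM in replicates 1 and 2. The libraries differed in the opposite direction, with Mir107 at a log2 ratio of 2.32 (2.27 to 2.37) and Mir103-2 at 2.07 (1.66 to 2.49). Levels of genes with a common arm varied between families. Mir128-1 and Mir128-2, in introns of R3hdm1 and Arpp21, share miR-128-3p and stood at 7405 and 2540 CPM and at 2467 and 1066 CPM. Their common arm is specific from 22 bases on, against 26 for miR-26a-5p and 25 for miR-103-3p. For Mir218-1 and Mir218-2, in the Slit2 and Slit3 introns, the common arm is specific from 23 bases, and the levels were 23.9 and 5.26 CPM and 85.2 and 95.4 CPM. Outside this list, Mir138-1 and Mir138-2 share an arm specific from 24 bases. They stood at 2760 and 7155 CPM and at 1510 and 3481 CPM. Whether these lengths bear on the levels was not tested. Reads within a common arm can be lost in the counting. The levels of the Mir103, Mir128, Mir138, Mir218, Mir219a, Mir9 and Mir124a copies are therefore uncertain, like those of Mir26a. The same holds for reads of Mir107 with 21 or fewer bases from the first base of its 3′ arm.

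**Figure D3:**
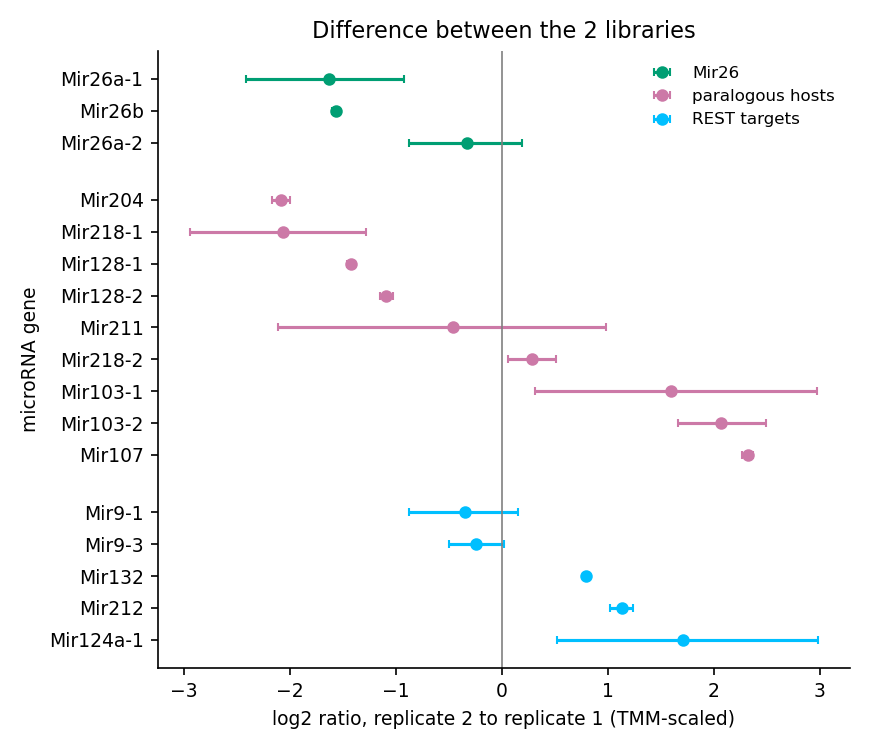
Log2 ratio of replicate 2 to replicate 1 (TMM-scaled) for the tested genes of the Mir26 family, of other microRNAs in paralogous hosts and of REST targets, with 95% counting intervals. Mir26a-1 and Mir26b lie at -1.63 and -1.57, the Pank genes above 0, and the interval of Mir26a-2 crosses 0.

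The host phosphatases work with REST, so 8 microRNA genes known as REST targets were compared. Of 5 tested, 3 were higher in replicate 2, none was lower and 2 did not pass, with a median of 0.80, beside 64.9% past the test in either direction and 32.9% higher over all genes. The 5 include 2 copies of Mir9 and the neighbours Mir132 and Mir212. Mir132, an activity-induced microRNA, had 4678 and 7461 CPM and a log2 ratio of 0.80 (0.77 to 0.82). Its neighbour Mir212 had 266 and 535 CPM and a ratio of 1.13 (1.02 to 1.24). The third higher gene was Mir124a-1, with 10 and 18 counts and a ratio of 1.71 (0.52 to 2.99). Mir9-3 and Mir9-1 did not pass, at -0.24 (-0.50 to 0.02) and -0.35 (-0.88 to 0.15). Mir26b and Mir132 were therefore in opposite order in the 2 libraries, with Mir26b higher in replicate 1 and Mir132 higher in replicate 2.

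Among 447 other genes with a mean of at least 10 counts, the 3 closest to each member were found by the distance of log2(CPM + 1) over the 2 libraries. Closest to Mir26b was Mir128-1, at a distance of 0.25, followed by Mir370 at 0.37 and Mir143 at 0.67. Mir370, of the imprinted Dlk1-Dio3 region, had 8043 and 2116 CPM. Mir143, abundant in smooth muscle, had 5729 and 3305 CPM. Closest to Mir26a-1 was Mir218-1 at 0.30, then Mir5121 and Mir7069, both at 0.56. Closest to Mir26a-2 were Mir6769b at 0.04, Mir9-1 at 0.10 and Mir677 at 0.13. Genes picked for closeness in both libraries have similar ratios between them by that choice, so the ratios add nothing. With 2 libraries this likeness is one of level only.

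**Figure D4:**
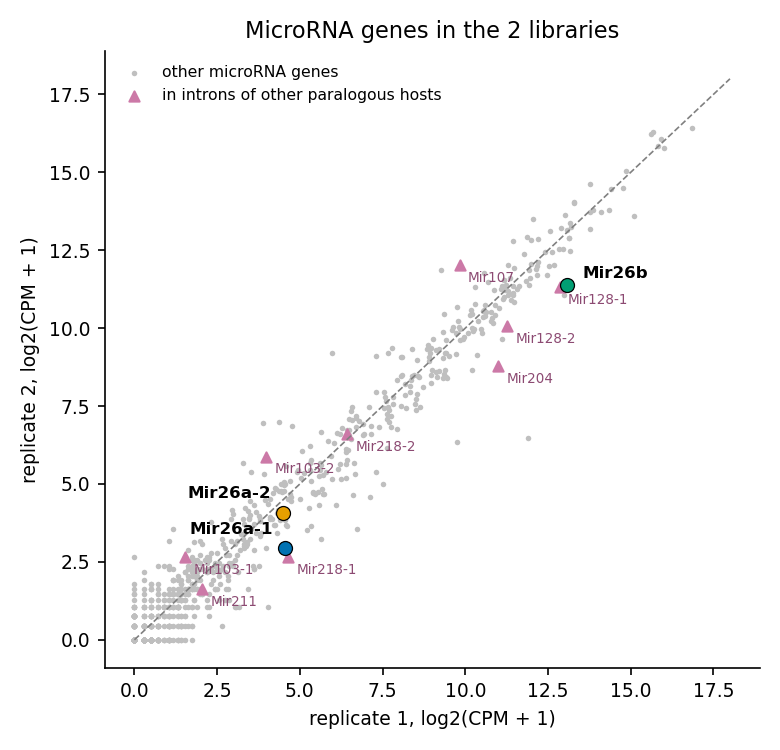
Level of every microRNA gene in replicate 1 (horizontal) and replicate 2 (vertical) as log2(CPM + 1), with the Mir26 genes as outlined circles, microRNAs of other paralogous hosts as triangles, and equal levels on the dashed line. Mir26b and Mir26a-1 lie below the line beside Mir128-1 and Mir218-1, while Mir26a-2 lies close to it.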

How the data were processed

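Small RNA libraries from the 2 pools were sequenced by the microRNA-seq protocol of the labels. The deposited values are raw counts, 1 per microRNA gene and column, on assembly mm10 with GENCODE annotation M21, per the labels and the text deposited with the files. No aligner or counter is named in the sources used. The 3 count columns have no header and were taken as unstranded and as 1 column for each of the 2 strands, and the strand with the larger total was used as sense. Lines for unmapped, multi-mapping and unassigned reads, 63.9% and 63.6% of reads, were left out of every library size and test. Each of the 3 columns adds up to the same number of reads, these lines included.

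CPM was computed from these counts, with exact Clopper-Pearson 95% intervals. Ratios used TMM-scaled sizes (edgeR 4.0.16, R 4.3.3) over the 450 genes with 20 or more counts over both libraries, tested by a two-sided exact binomial test with Benjamini-Hochberg adjustment at 0.05. This covers counting error only, because 1 group leaves no contrast to model. Odds between members have exact conditional intervals (scipy 1.17.1). Arms and hairpins came from RefSeq (GRCm38.p6), which held 968 of the counted gene symbols, and from M21 transcripts.

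Alternatives were DESeq2 1.42.0 size factors, total counts, the unstranded column, other filters and thresholds, the most abundant gene left out, all reads as library size and each replicate left out. Named genes were the 3 members, the 3 genes nearest to each in level and up to 4 detected genes per list. Mir103-1, Mir103-2, Mir211, Mir218-1 and Mir218-2, the copies of Mir124a, Mir126a, Mir126b, Mir138-1, Mir145a, Mir451a, Mir449b, Mir6932, Mir7039 and Mir546 were named besides, after their values were seen. So were Mir138-2, Mir146, Mir5615-1 and Mir5615-2. Members and lists were chosen with earlier results of these data known. Alignments and signal tracks were not used here.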

Additional observations from a re-analysis of the deposited data

How the results depend on the processing

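Each alternative kept the direction and the call of all 3 log2 ratios wherever it gave a value. Mir26b ranged from -1.69 to -1.54, Mir26a-1 from -1.75 to -1.61 and Mir26a-2 from -0.45 to -0.31. A summed count of at least 200 gave no value for the Mir26a genes. With total counts as library sizes the median of all tested genes shifted to -0.11, and relative to it Mir26b stood at -1.58, Mir26a-1 at -1.64 and Mir26a-2 at -0.34; this split the called genes into 127 higher and 168 lower, against 148 and 144. With all reads as library size, all 3 mean levels were lower, because reads assigned to no gene enter the total: 2064 CPM for Mir26b (5705 before), 5.27 for Mir26a-1 (14.6) and 6.77 for Mir26a-2 (18.7). With a single library per pool and 2 pools, the values without a replicate are those of the other library. Counts of Mir26a-1 (19 in replicate 2) limit its precision. No paired analysis was possible because there is only 1 group.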

Other observations

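GENCODE M21 places the first base of 2 shorter Ctdsp2 transcripts, Ctdsp2-201 (protein-coding) and Ctdsp2-203 (retained intron), at base 126995613 of chromosome 10, which is the last base of the Mir26a-2 hairpin. The hairpin therefore lies in an intron of Ctdsp2-202 and touches an exon of these 2 transcripts with 1 base, whereas Mir26a-1 and Mir26b overlap no annotated exon of their hosts. Mir546, the nearest microRNA gene to Mir26a-2 at 2827 bases, had 11 counts in replicate 1 and 1 in replicate 2.

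Of 954 counted genes with a mature arm in the RefSeq table, 88 carry an arm identical to one of another gene, and Mir26a-2 and Mir26a-1 ranked 38 and 40 among these by mean level. Detected genes had a median of 75.7 CPM in this group (43 of 88 genes) and 129 CPM among the other 866 genes (299 detected). In bins set after the values were seen, 6 of 8 identical-arm genes were detected where the arm was scored as specific to 1 gene from 22 bases or fewer. It was 26 of 38 for 23 to 25 bases, and 11 of 42 for 26 bases or more or no specific read, both Mir26a genes among them. Mir5615-1 and Mir5615-2, both at 0 counts, fell in the first bin although their 22-base arms are identical, because genes that overlap were not compared. Levels within each bin ranged widely, from 0 to 4973, 0 to 4957 and 0 to 872 CPM. Genes of 1 family share sequence and are not independent, and the bins were not tested.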
